A study of Homo sapiens with 16 samples.

Results

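The genes described here are 45 genes of the mitotic spindle, the kinetochore and cytokinesis, out of 60649 gene identifiers in the deposited count table. They were chosen by name for their roles in cell division. This choice, and that of the other gene lists, markers and promoter motifs, was made with earlier results of these data known. All 45 passed the filter on low counts, which kept 19103 genes, so none was lost before testing. The samples were cultures of ASC52telo, a line of human mesenchymal stem cells (MSCs) from adipose tissue that was immortalized with telomerase reverse transcriptase. Poly(A) RNA was sequenced in 16 libraries, 4 replicates in each of 4 groups. In MmC-/GDF11- (young MSCs) neither agent was given, and in MmC-/GDF11+ the cytokine growth differentiation factor 11 (GDF11) was added at 10 ng/mL over 10 days. In MmC+/GDF11- (senescent MSCs) the cells were exposed to 1.5 µg/mL of the DNA-alkylating agent mitomycin C (MmC) for 18 h before those 10 days, and MmC+/GDF11+ received MmC first and GDF11 afterwards. All groups share the same immortalized line and the labels give its genotype as wild type, so the groups model 1 line in culture and not donors. The replicates are described as biological, but whether each came from its own culture and MmC exposure is not given in the sources used here, so p-values measure the spread between these libraries.

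A dividing cell condenses its chromosomes, builds a bipolar spindle of microtubules, attaches each chromosome to it through a kinetochore on the centromere, and waits at the spindle assembly checkpoint until every kinetochore is attached. The anaphase-promoting complex then marks securin and cyclin B for destruction, separase cuts the cohesin that holds sister chromatids together, and the cell is cut in 2 at the midbody. Transcripts of most genes with these duties accumulate in the G2 and M phases of the cell cycle under MuvB complexes with MYBL2 and FOXM1, and the same promoters are kept low in quiescent and senescent cells, which do not divide. In bulk RNA, fewer cells in G2 and M phase and less of each transcript per cell cannot be told apart.

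Total counts lay between 71275337 and 144204979 per library. Levels are given in CPM, a gene's count relative to its library's total after TMM scaling. Of the marker lists, 5 of 5 MSC surface markers were above 1 CPM in every group and summed to between 4735 and 6428 CPM, while 5 haematopoietic markers summed to between 9.61 and 21.8 CPM, 5 endothelial markers to between 47.5 and 111 CPM, and 5 adipocyte markers to between 1.31 and 2.53 CPM. Most of the haematopoietic sum was CD34 (6.81 to 19.1 CPM) and most of the endothelial sum TEK (38.2 to 103 CPM). The endothelial markers did not move as 1 with MmC. CDH5 was lower (0.725 to 0.972 CPM against 1.85 to 2.98 CPM). PECAM1 was higher in replicates 2 to 4 (13.9 to 19.7 CPM against 4.89 to 7.56 CPM). The 5 epithelial markers, mostly the keratin genes KRT8 and KRT18, summed to between 103 and 165 CPM in the libraries without MmC. In those with MmC they summed to between 44.4 and 79.3 CPM. KRT8 and KRT18 thus moved with MmC like the mitotic genes, while for CDH1 and CLDN4 the libraries with and without MmC overlapped. EPCAM, a defining epithelial marker, averaged 0.0286 CPM or less in every group. ADIPOQ, a defining adipocyte marker, was at 0 in all libraries of 1 group. In 3 of the 4 groups, all but MmC-/GDF11+, the library numbered replicate 1 lay below replicates 2 to 4 in the mitotic genes, and the count of called genes and the median over the 45 genes after MmC are also given without replicate 1.

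In MmC-/GDF11- the 45 genes together took 2898 ± 814 CPM (SD, n = 4), which is 0.290% of the TMM-scaled library total. Per kilobase of exon, CDC20 was the highest at 62.6 ± 22.3 CPM per kb, followed by TPX2 at 45.4 ± 12.1 and UBE2C at 36.3 ± 11.0 CPM per kb. The SD ranges of CDC20 and TPX2 overlapped, as did those of TPX2 and UBE2C. At the low end stood ESPL1 at 1.98 ± 0.686, PRC1 at 0.617 ± 0.178 and SPC25 at 0.323 ± 0.107 CPM per kb, and the SD ranges of these neighbours did not overlap. The 4 subunits of the NDC80 complex were unequal in this measure, with NDC80 at 11.6 ± 3.38, NUF2 at 8.94 ± 2.98 and SPC24 at 6.03 ± 1.59 CPM per kb against 0.323 for SPC25. Both low values rest on few reads: SPC25 had between 7 and 73 counts per library and PRC1 between 25 and 469. Few counts per library were also seen in other genes of mitosis, TUBB (5 to 27) and NUSAP1 (6 to 44). The treatment of multiply aligned reads is not given in the sources used here. Whether reads of SPC25 were lost in counting was not tested, so its value gives counted reads only. For PRC1, 57.6% of the exonic bases also lie under a gene of the same strand in the annotation and 34.3% under a gene of the other strand, and for BUB1B 10.2% lie under a gene of the same strand. More than 10% of the exonic bases lie under a gene of the other strand also in PLK1 (12.8%), SGO1 (15.8%), NCAPG (33.7%), SMC4 (22.0%) and FOXM1 (15.9%). The strand setting of the counting is not given in the sources used here, so the counts of these genes are uncertain to that extent.

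**Figure D1:**
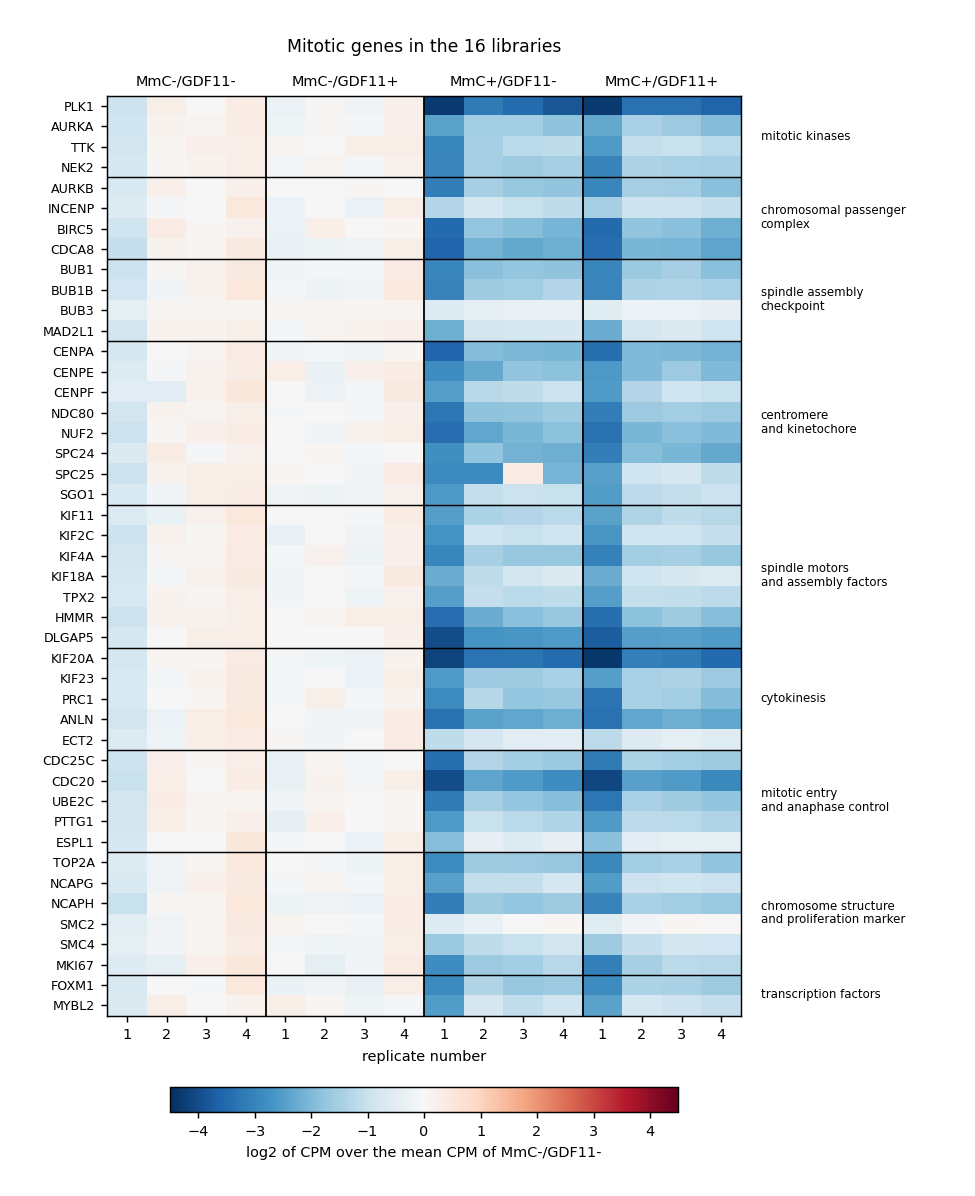
Level of each of the 45 mitotic genes (rows, grouped by role) in the 16 libraries (columns, replicates 1 to 4 of each group), as log2 of CPM over the gene's mean CPM in MmC-/GDF11-. The 8 libraries with MmC are blue (lower) for most genes, and replicate 1 is the darkest column in both MmC+ groups.

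The first comparison asks what MmC does to these genes 10 days later. Without GDF11, 42 of 45 genes (93.3%) were lower in senescent than in young MSCs and 0 were higher at an edgeR adjusted p under 0.05, where 22.4% of all 19103 tested genes were lower and 22.9% higher. The median log2 fold change of the 45 genes was -1.78 (3.44-fold lower) against -0.01 over all tested genes. It ran from -3.64 for the kinase PLK1 to -0.18 for the condensin subunit SMC2, and 41 genes lay below -1, as did 6.48% of all genes. In 37 of 45 genes every MmC+/GDF11- library lay below every MmC-/GDF11- library (18.2% of all genes did so), and the 8 whose groups overlapped were BUB3, MAD2L1, SPC25, KIF2C, KIF18A, ECT2, ESPL1 and SMC2. The summed level of the 45 genes was 1776, 2948, 3160 and 3709 CPM in the young libraries (replicates 1 to 4) and 560, 1095, 1101 and 1143 CPM in the senescent ones. The genes thus took 975 ± 277 CPM (SD, n = 4), or 0.0975% of the TMM-scaled library total, after MmC. Tested against a 2-fold change instead of no change (glmTreat), 21 of the 45 genes passed. The share of all tested genes that passed glmTreat is not given here, so this count has no baseline.

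**Figure D2:**
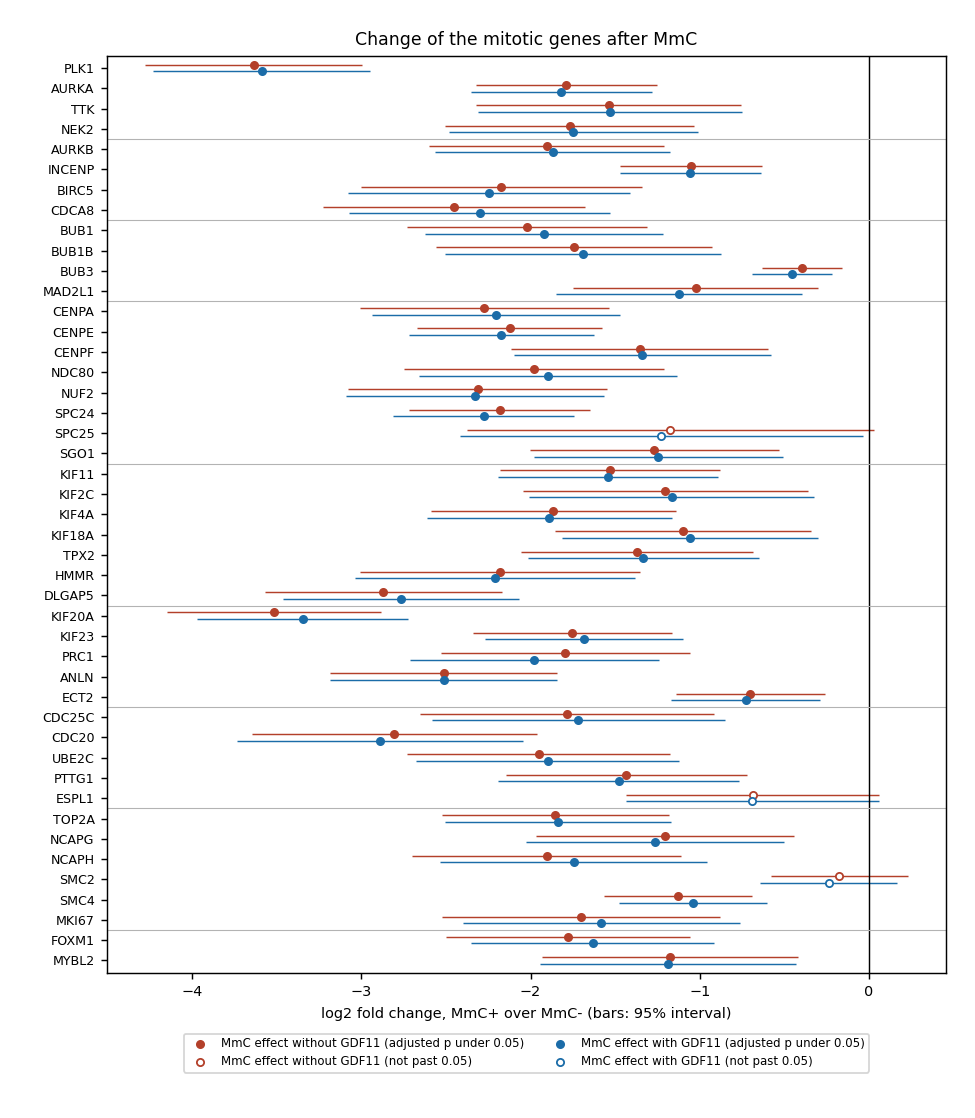
Log2 fold change of the 45 mitotic genes after MmC (x axis), without GDF11 (red) and with GDF11 (blue), with 95% intervals, in the order of their roles. The points lie left of 0 in both comparisons, and SPC25, ESPL1 and SMC2 (open points) did not pass the adjusted p of 0.05.

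Promoter sequence was taken from the RefSeq set on GRCh38.p14, from 250 bases before to 50 bases after each start site, which held 38 of the 45 genes (46 windows). The windows were searched on both strands for the cell cycle genes homology region (CHR, TTTGAA), a CHR-like variant (TTCGAA), the CCAAT box (CCAAT), and E2F-like sites (GCGGGAA or GCGCGAA), and a gene was counted where any of its windows held the letters. A CHR was found in 27 of 38 genes (71.1%) against 18.2% of 27305 genes with a window and 14.3% of the 12539 of these that were tested. A CCAAT box was found in 28 (73.7%, against 39.7% and 42.6%), and both together in 20 (52.6%, against 8.37% and 7.69%). The CHR-like variant was found in 3 (7.89%, against 1.82% and 2.30%) and an E2F-like site in 6 (15.8%, against 10.2% and 15.7%). The median log2 fold change after MmC was -1.75 in the 27 genes with a CHR and -1.90 in those with a window and no CHR. The promoters of the 2 genes with a window that changed most and the 2 that changed least are printed to show what the ends of the range hold, from 130 bases before to 20 bases from the start site, with the CHR and CCAAT letters of either strand in capitals (a CHR on the other strand reads TTCAAA and a CCAAT box ATTGG).
PLK1 (chr16:23678759-23678908, + strand): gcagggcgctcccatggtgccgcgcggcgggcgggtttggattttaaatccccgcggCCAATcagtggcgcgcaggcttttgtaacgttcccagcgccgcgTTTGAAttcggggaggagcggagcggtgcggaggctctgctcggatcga
KIF20A (chr5:138178982-138179131, + strand): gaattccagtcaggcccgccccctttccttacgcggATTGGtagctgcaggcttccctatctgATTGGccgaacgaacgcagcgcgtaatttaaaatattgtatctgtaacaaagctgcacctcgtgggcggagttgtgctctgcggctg
ESPL1 (chr12:53268169-53268318, + strand): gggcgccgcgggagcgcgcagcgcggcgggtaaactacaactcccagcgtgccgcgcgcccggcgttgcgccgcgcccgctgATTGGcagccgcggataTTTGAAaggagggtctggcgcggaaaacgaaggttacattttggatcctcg
SMC2 (chr9:104094179-104094328, + strand): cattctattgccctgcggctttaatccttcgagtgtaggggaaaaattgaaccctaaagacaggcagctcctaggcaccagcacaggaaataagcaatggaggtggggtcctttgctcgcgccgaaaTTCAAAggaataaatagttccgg
PLK1 and ESPL1 each hold 1 CHR with 1 CCAAT box upstream of it, although PLK1 changed most of the 45 genes and ESPL1 did not pass the test. KIF20A holds 2 CCAAT boxes and no CHR in the printed stretch, and SMC2 holds 1 CHR and no CCAAT box.

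The 4 mitotic kinases were all lower after MmC, with a median log2 fold change of -1.78. PLK1 (chr16:23677656-23690367, GRCh38), the polo-like kinase of mitotic entry, spindle poles and cytokinesis, stood at 42.8, 96.5, 81.96 and 102 CPM in young MSCs (replicates 1 to 4) and at 4.12, 8.86, 7.40 and 5.64 CPM in senescent MSCs. The groups were far apart, and the change was -3.64 ± 0.30 (SE), edgeR adjusted p = 4.39e-07, or 12.4-fold. With GDF11, PLK1 stood at 67.95, 83.8, 73.2 and 93.6 CPM in young and 4.13, 7.81, 7.81 and 6.61 CPM in senescent MSCs, again without overlap. TTK (chr6:80003887-80042527), the MPS1 kinase that starts the spindle checkpoint, changed the least of the kinases. It stood at 20.4, 38.04, 42.1 and 42.7 CPM in young MSCs (replicates 1 to 4) and at 4.65, 12.7, 15.6 and 16.4 CPM in senescent MSCs. With GDF11, TTK stood at 38.7, 35.5, 44.4 and 43.8 CPM in young and 6.06, 16.8, 17.7 and 15.4 CPM in senescent MSCs. The groups did not overlap, and the change without GDF11 was -1.54 ± 0.37 (SE), edgeR adjusted p = 0.00327. AURKA, which matures the spindle poles, went from 54.9 ± 17.6 to 15.9 ± 3.98 CPM (mean ± SD, n = 4) and NEK2, which separates the centrosomes, from 19.9 ± 5.43 to 5.83 ± 2.19 CPM, with log2 fold changes of -1.79 and -1.77.

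All 4 genes of the chromosomal passenger complex, which corrects faulty attachments and later moves to the spindle midzone, were lower, with a median of -2.04. CDCA8 (chr1:37692481-37709719), which encodes the targeting subunit borealin, stood at 20.04, 46.5, 44.01 and 55.5 CPM in young MSCs (replicates 1 to 4) and at 3.48, 9.46, 8.32 and 9.06 CPM in senescent MSCs. The change was -2.45 ± 0.36 (SE), edgeR adjusted p = 8.20e-05, or 5.48-fold. With GDF11 added, CDCA8 stood at 32.6, 35.8, 37.5 and 49.8 CPM in young and 3.84, 9.86, 9.79 and 7.98 CPM in senescent MSCs. INCENP (chr11:62123998-62153169), the scaffold of the complex, stood at 23.2, 32.9, 35.6 and 48.5 CPM in young MSCs (replicates 1 to 4) and at 13.9, 20.02, 17.6 and 15.999 CPM in senescent MSCs. Its groups were closer but still separate, with a change of -1.05 ± 0.20 (SE), edgeR adjusted p = 4.72e-04. With GDF11 added, INCENP stood at 29.2, 34.3, 29.2 and 43.1 CPM in young and 12.4, 18.3, 17.7 and 16.8 CPM in senescent MSCs. The catalytic kinase AURKB went from 17.4 ± 4.62 to 4.64 ± 1.79 CPM and BIRC5, which encodes survivin, from 131 ± 42.6 to 29.1 ± 12.2 CPM, with log2 fold changes of -1.91 and -2.17. The scaffold thus fell by about 1 on the log2 scale and its 3 partners by about 2, a difference between genes that was not tested.

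The 4 spindle assembly checkpoint genes were also all lower (median -1.38), over a wide range. BUB1 (chr2:110637528-110678063), a kinase at the unattached kinetochore, stood at 24.9, 50.1, 55.4 and 63.5 CPM in young MSCs (replicates 1 to 4) and at 6.31, 13.2, 14.3 and 13.8 CPM in senescent MSCs. The change was -2.02 ± 0.33 (SE), edgeR adjusted p = 1.93e-04, with no overlap. With GDF11 added, BUB1 stood at 43.8, 45.2, 45.5 and 62.4 CPM in young and 6.34, 15.2, 17.1 and 13.1 CPM in senescent MSCs. BUB3 (chr10:123154402-123170467), the adaptor that brings BUB1 and BUB1B to the kinetochore, had the smallest change of the 42 genes that passed the test. It stood at 122, 178, 177 and 176 CPM in young MSCs (replicates 1 to 4) and at 109.9, 125, 133 and 129 CPM in senescent MSCs. Replicate 1 of MmC-/GDF11-, at 122 CPM, lay below 3 of the 4 MmC+/GDF11- libraries, so these groups overlapped, and the change was -0.39 ± 0.11 (SE), edgeR adjusted p = 0.00909. With GDF11 added, BUB3 stood at 167, 178, 175 and 178 CPM in young and 112, 135, 136 and 126 CPM in senescent MSCs, without overlap. BUB1B, part of the inhibitor of the anaphase-promoting complex, went from 39.4 ± 14.1 to 11.8 ± 4.71 CPM (log2 fold change -1.74) and MAD2L1, which holds CDC20 in that inhibitor, from 50.2 ± 14.7 to 24.7 ± 9.25 CPM (-1.02).

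Of the 8 centromere and kinetochore genes 7 were lower, with a median of -2.05 over the 8. NUF2 (chr1:163266576-163355764), a subunit of the NDC80 complex that binds microtubules, stood at 15.5, 31.6, 35.6 and 37.5 CPM in young MSCs (replicates 1 to 4) and at 2.77, 5.95, 7.22 and 8.26 CPM in senescent MSCs. The change was -2.31 ± 0.36 (SE), edgeR adjusted p = 1.20e-04, or 4.97-fold. With GDF11 added, NUF2 stood at 30.6, 27.8, 34.4 and 37.1 CPM in young and 2.90, 7.15, 8.12 and 7.59 CPM in senescent MSCs. Its partners NDC80 and SPC24 changed by -1.98 and -2.18. SPC25 (chr2:168834132-168913371), the remaining subunit, is one of the 3 genes that did not pass. It stood at 0.299, 0.652, 0.708 and 0.704 CPM in young MSCs (replicates 1 to 4) and at 0.0810, 0.0816, 0.748 and 0.138 CPM in senescent MSCs. Replicate 3 of MmC+/GDF11- (67 counts) was as high as the young libraries while the other MmC+/GDF11- libraries had 7 to 12 counts, and the change was -1.17 ± 0.57 (SE), edgeR adjusted p = 0.102. Without that library the change was -2.55 (edgeR adjusted p = 0.000227). With replicate number as a block in the fit of all 16 libraries, the change was -1.35 (edgeR adjusted p = 0.0275). That fit gives each number the same effect in every group, so it is not a paired fit of this comparison alone. Across the alternatives that test against no change the adjusted p of SPC25 ran from 0.000227 to 0.237. With GDF11 added, SPC25 stood at 0.625, 0.603, 0.537 and 0.759 CPM in young and 0.109, 0.315, 0.361 and 0.267 CPM in senescent MSCs, with no overlap and a change of -1.23 ± 0.56 (SE), edgeR adjusted p = 0.0838. CENPA, the histone variant that marks the centromere, went from 14.3 ± 4.32 to 2.96 ± 1.17 CPM (-2.27). CENPE, a kinesin of the kinetochore, changed by -2.12, CENPF by -1.36 and SGO1, the shugoshin that protects centromeric cohesin, by -1.27.

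The 7 spindle motors and assembly factors were all lower (median -1.53). DLGAP5 (chr14:55148112-55191608), which encodes the microtubule stabilizer HURP, stood at 35.7, 60.8, 73.5 and 75.4 CPM in young MSCs (replicates 1 to 4) and at 3.86, 9.45, 9.87 and 10.4 CPM in senescent MSCs. The change was -2.87 ± 0.33 (SE), edgeR adjusted p = 8.36e-06, or 7.31-fold. With GDF11 added, DLGAP5 stood at 61.7, 60.01, 61.2 and 72.01 CPM in young and 4.70, 10.9, 11.2 and 10.5 CPM in senescent MSCs. KIF18A (chr11:28020619-28108156), a kinesin that damps chromosome movement at the metaphase plate, stood at 12.1, 19.9, 23.8 and 27.5 CPM in young MSCs (replicates 1 to 4) and at 4.40, 9.38, 11.8 and 13.4 CPM in senescent MSCs. Replicate 1 of the young group, at 12.1 CPM, lay below replicate 4 of the senescent group at 13.4 CPM, and the change was -1.10 ± 0.36 (SE), edgeR adjusted p = 0.0200. With GDF11 added, KIF18A stood at 19.1, 20.5, 19.99 and 27.8 CPM in young and 4.46, 11.1, 12.7 and 13.7 CPM in senescent MSCs, without overlap. HMMR, a spindle-pole factor, changed by -2.18, the chromokinesin KIF4A by -1.87, and KIF11, the motor that pushes the spindle poles apart, by -1.53. TPX2, which activates AURKA on the spindle, went from 164 ± 43.5 to 63.2 ± 22.5 CPM (-1.37). KIF2C, a microtubule depolymerase, changed by -1.21.

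All 5 cytokinesis genes were lower (median -1.80). KIF20A (chr5:138178719-138187723), the kinesin that carries the passenger complex to the midzone, stood at 49.2, 90.8, 90.1 and 108 CPM in young MSCs (replicates 1 to 4) and at 4.67, 8.51, 8.64 and 7.72 CPM in senescent MSCs. The change was -3.52 ± 0.30 (SE), edgeR adjusted p = 4.92e-07, or 11.5-fold, next to that of PLK1. With GDF11 added, KIF20A stood at 79.9, 74.5, 70.4 and 94.6 CPM in young and 4.20, 9.99, 9.66 and 7.43 CPM in senescent MSCs. ANLN, whose product anillin links the contractile ring to the membrane, went from 164 ± 60.3 to 28.8 ± 8.77 CPM (-2.51). KIF23, the motor subunit of centralspindlin, changed by -1.75 and PRC1, which bundles midzone microtubules, by -1.80. ECT2 (chr3:172750682-172821474), the exchange factor that activates RhoA at the cleavage furrow, changed the least of these. It stood at 46.7, 62.9, 87.1 and 92.4 CPM in young MSCs (replicates 1 to 4) and at 32.9, 42.7, 50.4 and 51.6 CPM in senescent MSCs. Replicate 1 of the young group lay within the range of the senescent group, and the change was -0.70 ± 0.21 (SE), edgeR adjusted p = 0.0116. With GDF11 added, ECT2 stood at 74.5, 67.1, 72.3 and 90.5 CPM in young and 32.3, 48.4, 53.8 and 49.2 CPM in senescent MSCs, without overlap.

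Of the 5 genes of mitotic entry and anaphase control 4 were lower, with a median of -1.79 over the 5. CDC20 (chr1:43358981-43363203), the activator of the anaphase-promoting complex, stood at 63.2, 156, 124 and 160.3 CPM in young MSCs (replicates 1 to 4) and at 7.83, 24.6, 21.7 and 17.97 CPM in senescent MSCs. The change was -2.81 ± 0.40 (SE), edgeR adjusted p = 5.28e-05, or 6.99-fold. With GDF11 added, CDC20 stood at 102, 141, 120.2 and 149.5 CPM in young and 7.33, 23.2, 21.7 and 16.996 CPM in senescent MSCs. ESPL1 (chr12:53268299-53293638), which encodes separase, did not pass. It stood at 10.4, 17.2, 17.5 and 25.3 CPM in young MSCs (replicates 1 to 4) and at 4.68, 13.7, 11.9 and 13.5 CPM in senescent MSCs. The young replicate 1, at 10.4 CPM, lay among the senescent libraries, and the change was -0.69 ± 0.35 (SE), edgeR adjusted p = 0.123. With replicate number as a block in the fit of all 16 libraries it was -0.72 (edgeR adjusted p = 0.0154). The adjusted p ran from 0.00400 to 0.345 across the alternatives that test against no change. With GDF11 added, ESPL1 stood at 16.5, 17.4, 14.7 and 21.4 CPM in young and 4.73, 12.3, 13.2 and 13.1 CPM in senescent MSCs. These libraries did not overlap, and the change was -0.69 ± 0.35 (SE), edgeR adjusted p = 0.120. PTTG1, which encodes the separase inhibitor securin, went from 65.4 ± 19.4 to 24.2 ± 9.17 CPM (-1.43). The ubiquitin-conjugating enzyme UBE2C changed by -1.95, and CDC25C, the phosphatase that activates CDK1, by -1.79.

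Of the 6 genes of chromosome structure and proliferation 5 were lower, with a median of -1.45 over the 6. NCAPH (chr2:96335766-96377091), a subunit of condensin I, stood at 14.3, 29.6, 30.5 and 39.7 CPM in young MSCs (replicates 1 to 4) and at 3.32, 9.40, 8.46 and 9.35 CPM in senescent MSCs. The change was -1.90 ± 0.37 (SE), edgeR adjusted p = 7.96e-04. With GDF11 added, NCAPH stood at 24.4, 25.7, 23.6 and 35.7 CPM in young and 3.60, 10.4, 9.57 and 8.94 CPM in senescent MSCs. SMC2 (chr9:104094260-104141419), an ATPase core shared by both condensins, stood at 38.3, 48.8, 60.1 and 72.3 CPM in young MSCs (replicates 1 to 4) and at 36.4, 44.3, 54.8 and 58.8 CPM in senescent MSCs. The groups overlapped, and the change was -0.18 ± 0.19 (SE), edgeR adjusted p = 0.477, with a 95% interval from -0.58 to 0.23. With GDF11 added, SMC2 stood at 59.3, 54.7, 53.3 and 69.7 CPM in young and 37.4, 50.3, 58.4 and 54.8 CPM in senescent MSCs, the only 1 of the 45 genes whose groups overlapped in that comparison. Its partner SMC4 changed by -1.13 and the condensin I subunit NCAPG by -1.21. MKI67 (chr10:128096659-128126423), whose product Ki-67 coats mitotic chromosomes and is the usual marker of proliferating cells, stood at 77.5, 84.2, 135 and 163 CPM in young MSCs (replicates 1 to 4) and at 16.4, 37.4, 39.6 and 47.9 CPM in senescent MSCs. The change was -1.70 ± 0.39 (SE), edgeR adjusted p = 0.00232, with no overlap. With GDF11 added, MKI67 stood at 115, 87.4, 106 and 149 CPM in young and 13.7, 40.9, 49.8 and 47.96 CPM in senescent MSCs. TOP2A, which untangles sister chromatids, went from 195 ± 57.7 to 54.1 ± 17.7 CPM (-1.85).

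Both transcription factors that drive such genes were lower. FOXM1 (chr12:2857680-2877174) stood at 97.7, 159, 148 and 218 CPM in young MSCs (replicates 1 to 4) and at 21.6, 61.6, 48.3 and 50.1 CPM in senescent MSCs. The change was -1.78 ± 0.34 (SE), edgeR adjusted p = 6.22e-04. With GDF11 added, FOXM1 stood at 126, 139, 125 and 191 CPM in young and 21.97, 57.7, 56.5 and 50.9 CPM in senescent MSCs. MYBL2 (chr20:43667019-43716495), which encodes B-MYB, stood at 18.6, 35.6, 29.7 and 32.8 CPM in young MSCs (replicates 1 to 4) and at 5.07, 17.4, 13.6 and 15.6 CPM in senescent MSCs. The change was -1.18 ± 0.35 (SE), edgeR adjusted p = 0.0137, and the libraries of both factors were separate in both comparisons. With GDF11 added, MYBL2 stood at 35.005, 30.1, 25.6 and 27.3 CPM in young and 5.44, 16.7, 15.3 and 14.3 CPM in senescent MSCs.

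In cells that received GDF11 the MmC comparison named the same genes. Again 42 of 45 were lower and 0 higher (23.3% and 23.4% of all tested genes), and SPC25, ESPL1 and SMC2 were the 3 that did not pass in either. The median log2 fold change was -1.72 (3.29-fold lower) against -0.01 over all genes, from -3.59 for PLK1 to -0.24 for SMC2. In 44 of 45 genes the groups did not overlap, where 21.2% of all genes did not. The summed level was 2735, 2851, 2729 and 3461 CPM in the young libraries and 565, 1145, 1209 and 1093 CPM in the senescent ones. Taken by replicate number, the median ratio of MmC+ to MmC- over the 45 genes was 0.230, 0.342, 0.300 and 0.257 without GDF11 and 0.145, 0.363, 0.408 and 0.271 with it. In replicate numbers 1, 2 and 4 all 45 genes were lower in both comparisons, and in number 3 all but 1 (SPC25 without and SMC2 with GDF11).

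With replicate number 1 left out of every group, 43 genes were lower in each comparison, and the median was -1.72 without and -1.52 with GDF11. The share of all tested genes called lower without replicate number 1 is not given here. Of the 42 genes called in each comparison, 39 stayed called under all 25 alternatives that test against no change. The other 3 were MAD2L1, KIF2C and KIF18A, in both comparisons. Without GDF11, leaving out 1 library ended the call of MAD2L1 for replicate 1 of MmC+/GDF11- (edgeR adjusted p = 0.0528) and for replicates 2, 3 and 4 of MmC-/GDF11- (edgeR adjusted p = 0.0552, 0.0527 and 0.0612). It ended that of KIF2C for replicates 2 and 4 of MmC-/GDF11- (edgeR adjusted p = 0.0525 and 0.0616) and that of KIF18A for replicate 4 of that group (edgeR adjusted p = 0.0631). With GDF11, KIF2C and KIF18A were not called without replicate 1 of MmC+/GDF11+ (edgeR adjusted p = 0.0554 and 0.0517) or without replicate 4 of MmC-/GDF11+ (edgeR adjusted p = 0.0632 and 0.0683). Over these 25 alternatives the highest adjusted p of these 3 genes was 0.0762, 0.0734 and 0.0682 without GDF11, each with no filter on low counts, and the lowest were 4.91e-07, 1.22e-06 and 9.22e-05, each without replicate number 1.

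Other genes of mitosis, in 7 lists written by function, were lower in part. Of 127 such genes 126 were tested, and 72 were lower and 3 higher after MmC without GDF11 (80 and 2 with GDF11), beside 22.4% lower and 22.9% higher over all tested genes without GDF11 (23.3% and 23.4% with it), while SKA1 had at most 2 counts per library and was not tested. Of 31 other centromere and kinetochore genes 22 were lower and 0 higher (median -1.01), from KNL1, the platform for the checkpoint proteins (-2.33 ± 0.33 (SE), edgeR adjusted p = 5.36e-05), to CENPL (-0.43 ± 0.11 (SE), edgeR adjusted p = 0.00509) among those called. Of 28 other spindle, centrosome and motor genes 16 were lower and 1 higher (median -1.02). The lowest called value there was that of the kinesin KIFC1 (-4.51 ± 1.20 (SE), edgeR adjusted p = 0.00655), whose counts ran from 0 to 543 over the 16 libraries and whose groups overlapped, and the highest that of CLASP1, which stabilizes microtubule ends (0.24 ± 0.09 (SE), edgeR adjusted p = 0.0432). Of 11 mitotic entry kinases and cyclins 6 were lower and 0 higher (median -1.20), with CCNB1, the cyclin B1 partner of CDK1, from 136 ± 44.9 to 21.1 ± 5.77 CPM (-2.68 ± 0.29 (SE), edgeR adjusted p = 4.89e-06) and CKS2 the least changed of those called (-1.20 ± 0.38 (SE), edgeR adjusted p = 0.0188).

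The remaining 4 lists cover the exit from mitosis, chromosome structure and promoter control. Of 12 other cytokinesis genes 6 were lower and 1 higher (median -0.63), with DEPDC1 the lowest (-1.86 ± 0.37 (SE), edgeR adjusted p = 9.03e-04), and CHMP4B, an ESCRT subunit that cuts the midbody and also other membranes, the 1 that rose (0.21 ± 0.07 (SE), edgeR adjusted p = 0.0213). Of 18 genes of the anaphase-promoting complex and its regulators 11 were lower and 1 higher (median -0.33). The ubiquitin-conjugating enzyme UBE2S fell by 0.99 on the log2 scale (SE 0.27, edgeR adjusted p = 0.00672), and the subunit ANAPC13 rose, from 75.1 ± 3.20 to 102 ± 8.30 CPM (0.45 ± 0.07 (SE), edgeR adjusted p = 1.69e-04). Of 14 cohesin and other condensin genes 7 were lower and 0 higher (median -0.47), from the condensin II subunit NCAPG2 (-1.19 ± 0.29 (SE), edgeR adjusted p = 0.00378) to the cohesin subunit STAG2 (-0.48 ± 0.10 (SE), edgeR adjusted p = 0.00149). Of 12 genes of the MuvB and DREAM complexes, which regulate these promoters, 4 were lower, or 33.3% beside 22.4% of all tested genes, and 0 higher (median -0.20), from LIN9 (-1.05 ± 0.19 (SE), edgeR adjusted p = 3.17e-04) to RBL2 (-0.31 ± 0.09 (SE), edgeR adjusted p = 0.0134).

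**Figure D3:**
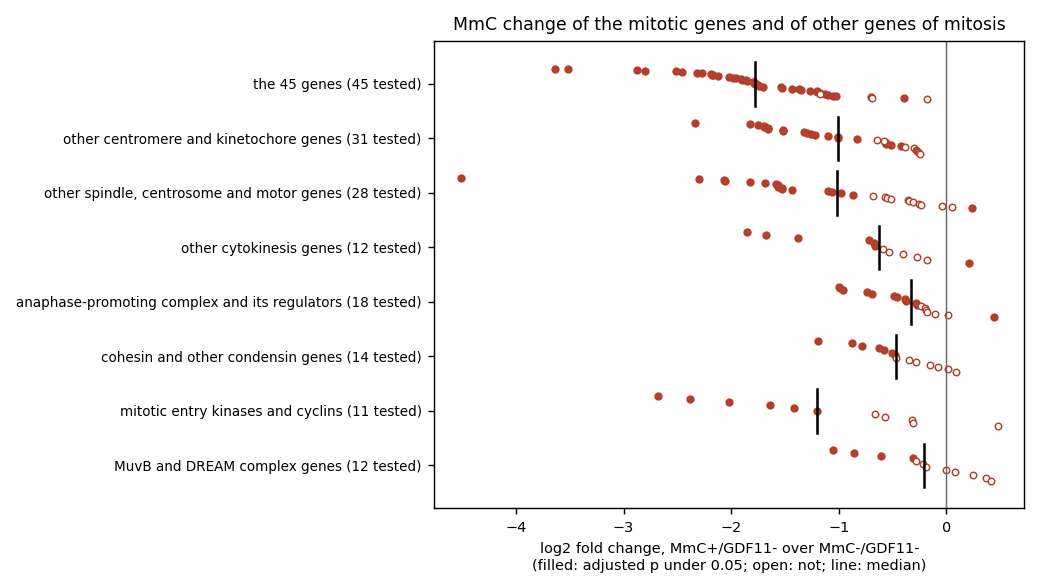
Log2 fold change after MmC without GDF11 (x axis) of the 45 mitotic genes and of 7 lists of other genes of mitosis, 1 point per tested gene, filled where the adjusted p was under 0.05, with the list's median as a line. The medians run from -1.78 for the 45 genes to -0.20 for the MuvB and DREAM genes.

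The second comparison asks whether GDF11 changes these genes. In neither cell state did a gene pass: 0 of 45 were called by edgeR, DESeq2 or limma-voom in young or in senescent MSCs, and 0 of 45 reached an unadjusted p under 0.05 in edgeR (1.18% of all tested genes did in young and 0.503% in senescent MSCs, and 0 genes of the whole table had an adjusted p under 0.05). The median log2 fold change was 0.02 in young MSCs, from -0.10 for FOXM1 to 0.18 for TTK, and 0.04 in senescent MSCs, from -0.10 for PRC1 to 0.19 for TTK. The libraries with and without GDF11 overlapped in all 45 genes in both states, where 0.513% of all genes were wholly lower and 0.377% wholly higher with GDF11 in young MSCs, and 0.293% and 0.209% in senescent MSCs. In each state the 95% interval lay within a 2-fold change either way for 44 of 45 genes, SPC25 being the exception. For PLK1 the interval was -0.60 to 0.55 in young and -0.57 to 0.61 in senescent MSCs, and for MKI67 it was -0.80 to 0.79 and -0.69 to 0.91, as estimated from libraries taken as unpaired. In senescent MSCs, where same-numbered libraries deviated together, a fit of the 8 senescent libraries with replicate number as a block, added after seeing the data, gave narrower intervals, from -0.12 to 0.19 for PLK1 and from -0.11 to 0.26 for MKI67. With this pairing the interval still lay within a 2-fold change for 44 of 45 genes, the median was 0.05, and 0 genes passed by edgeR's adjusted p, while 3 had an unadjusted p under 0.05 (2.57% of the 18422 genes tested in that fit did). These 3, named after their values were seen, were TTK (0.21 ± 0.07, SE), DLGAP5 (0.17 ± 0.06) and NDC80 (0.13 ± 0.06). No such fit was made of the young libraries alone, so narrower intervals are given for senescent MSCs only. Deviations of same-numbered young libraries were also correlated across genes, with r from 0.0982 to 0.504. The summed level was 2898 ± 814 CPM without and 2944 ± 349 CPM with GDF11 in young MSCs, and 975 ± 277 and 1003 ± 296 CPM in senescent MSCs (SD, n = 4).

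The interaction of MmC and GDF11 was not called for any of the 45 genes by edgeR, DESeq2 or limma-voom, and 0 had an unadjusted p under 0.05 in edgeR (0.900% of all genes did). Its median was 0.01 on the log2 scale, and its 95% interval lay within a 2-fold difference for 16 of the 45 genes. Taken by replicate number, young replicate 1 differed from the rest: all 45 genes were higher in the library with GDF11 than in the one without, and the summed level was 1.54 times as high. In young replicates 2, 3 and 4 only 16, 5 and 5 genes were higher, and the sums were 0.967, 0.864 and 0.933 times as high. In senescent replicates 1 to 4, 29, 29, 39 and 12 genes were higher, with sums 1.01, 1.05, 1.10 and 0.957 times as high. The direction of the median turned with single libraries. In young MSCs it was -0.15 without replicate 1 of MmC-/GDF11- and 0.17 without replicate 4 of that group, and in senescent MSCs -0.17 without replicate 1 of MmC+/GDF11- and 0.27 without replicate 1 of MmC+/GDF11+, with 0 genes called in each case. Without replicate number 1 in any group, 1 gene had an unadjusted p under 0.05 in young MSCs and 0 in senescent MSCs. The share of all tested genes that did so in that fit is not given here.

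**Figure D4:**
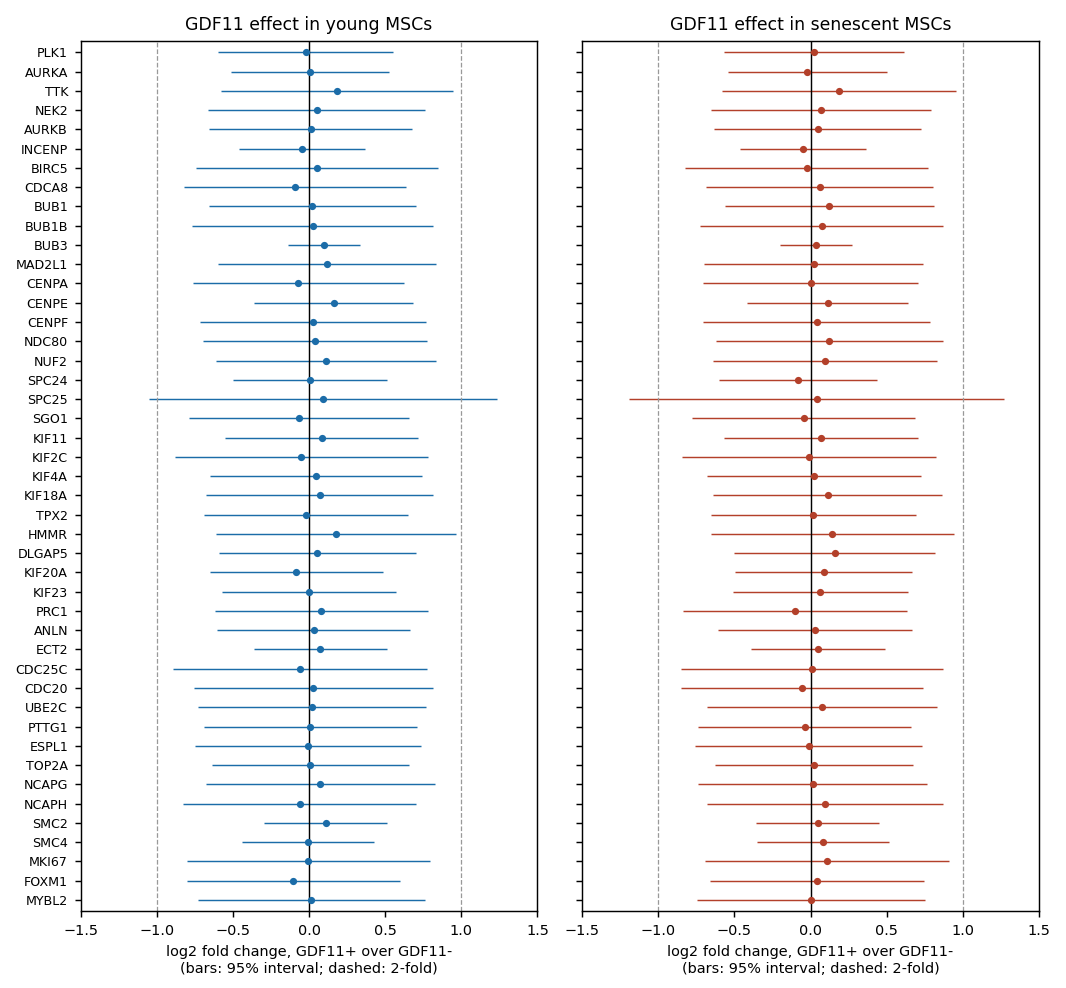
Log2 fold change of the 45 mitotic genes with GDF11 (x axis) in young (left) and senescent MSCs (right), with 95% intervals and dashed lines at a 2-fold change. All intervals include 0, and in each panel only that of SPC25 reaches past a dashed line.

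Replicate 1 was set against replicates 2 to 4 as a description, because this contrast was already known to stand apart in these data. Averaged over the 4 groups, all 45 genes were lower in replicate 1 (52.2% of all genes were), with a median log2 difference of -0.90 against -0.02 over all genes. The difference was largest for KIF2C (-1.16 ± 0.17, SE), CDC25C (-1.14 ± 0.18) and BIRC5 (-1.11 ± 0.16) and smallest for SMC2 (-0.42 ± 0.12) and BUB3 (-0.27 ± 0.06). By role, the median ran from -1.01 for mitotic entry and anaphase control to -0.70 for cytokinesis. The summed levels show the size: 1776 CPM against 2948 to 3709 CPM in MmC-/GDF11-, 560 against 1095 to 1143 CPM in MmC+/GDF11-, and 565 against 1093 to 1209 CPM in MmC+/GDF11+, but 2735 against 2729 to 3461 CPM in MmC-/GDF11+. Replicate 1 was thus the lowest library for all 45 genes in MmC-/GDF11- (31.5% of all genes), MmC+/GDF11- (35.2%) and MmC+/GDF11+ (36.9%), and for 14 genes in MmC-/GDF11+ (28.9%). In that last group 30 genes lay between the other replicates and 1, MYBL2, was highest in replicate 1 (26% of all genes were). The median ratio of replicate 1 to the mean of the other 3 was 0.511 in young MSCs without GDF11 and 0.921 with it, and 0.390 in senescent MSCs without GDF11 and 0.380 with it. Replicate 1 was lowest in all 4 groups for 14 genes (8.56% of all genes), among them PLK1, AURKA, CDC20, BUB1 and BUB3. The labels give no property that sets replicate 1 apart. The study names batch effects of technical origin among its limits, without saying which libraries they touch, so their part in this difference was not tested.

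**Figure D5:**
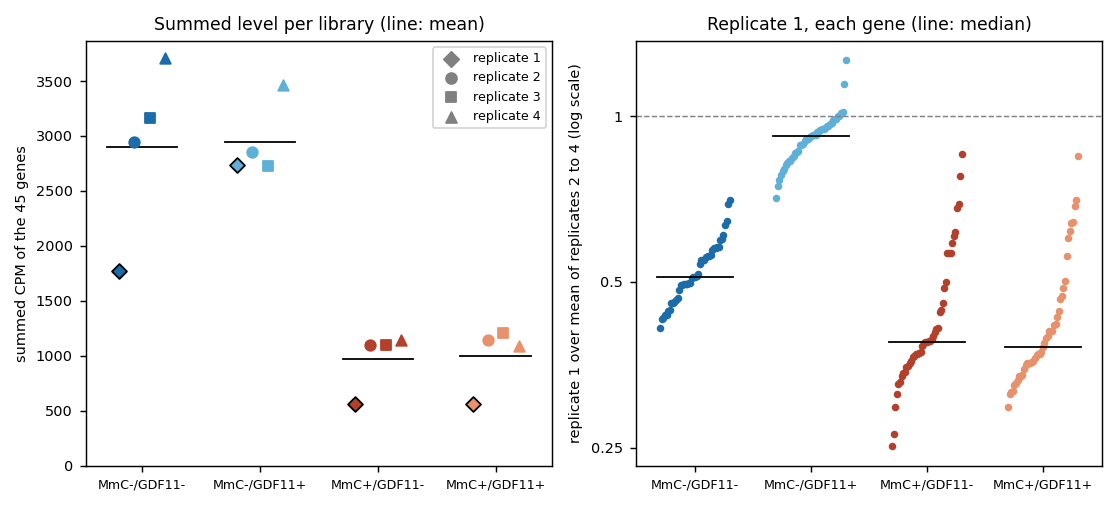
Left, summed CPM of the 45 mitotic genes in each library by group, with the symbol giving the replicate number and a line at the mean. Right, ratio of replicate 1 to the mean of replicates 2 to 4 for each gene (log axis), sorted within each group, with a line at the median: the medians are 0.511, 0.921, 0.390 and 0.380.

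Within groups the 45 genes varied together from library to library. After the group means were removed, the median Pearson r over the 990 pairs of genes was 0.92 across 16 libraries, with 99.9% of pairs above 0.5 and the lowest at 0.49, where the median over all pairs of tested genes was 0.00 and 12.9% were above 0.5. All genes of a library share its depth and scaling factor, and the value depends on replicate 1. Over the 12 libraries of replicates 2 to 4 the median r was 0.49, with 49.3% of pairs above 0.5 and the lowest at -0.73. Values over all pairs of tested genes were not computed for these 12 libraries. The genes that followed the mean of the others least across the 16 libraries were SPC25 (r = 0.64), INCENP (0.81) and BUB3 (0.84).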

How the data were processed

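The authors aligned the reads to GRCh38/hg38 with HISAT2 2.2.1 and counted them on GENCODE V38 genes with featureCounts 2.0.1, and the deposited values are raw counts per gene. Strand setting, counting of pairs and treatment of multiply aligned reads are not given in the sources used here. Groups and replicate numbers came from the labels.

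The 45 genes, the other gene lists, the marker lists and the promoter motifs were chosen with earlier results of these data known. Symbols, positions and exon lengths came from GENCODE v44 (hg38), a later release, which left 186 of 60649 identifiers without a symbol. Counts were tested in R 4.3.3 with edgeR 4.0.16 (filterByExpr with a minimum count of 10 and a minimum total of 15, TMM, robust quasi-likelihood fit of all 16 libraries with 1 mean per group), with Benjamini-Hochberg adjustment over all 19103 genes kept. SE is the absolute log2 fold change over the square root of F. Alternatives used DESeq2 1.42.0, limma 3.58.1 (voom), glmTreat, other scalings and filters, a replicate block and left-out libraries. Steps were tested on simulated data drawn without any effect of replicate number. That check does not cover the shared low level of replicate 1. Genes shown by library are the lowest and highest of each role by MmC change without GDF11, plus MKI67, and of each other list the lowest and highest called gene is named. Deviations of same-numbered libraries from their group means were correlated across genes. The lowest r was 0.448 for GDF11 in senescent MSCs and 0.113 for MmC without GDF11. It was 0.0982 for GDF11 in young MSCs and 0.0293 for MmC with GDF11. In replicate 1 the order differed, with r = 0.504 for GDF11 in young MSCs and 0.368 for MmC without GDF11. The main fit took all libraries as unpaired, and replicate number entered only in the block alternatives. Library totals were 71275337 to 144204979 counts.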

Additional observations from a re-analysis of the deposited data

Results flagged for a closer look

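In groups of 4 libraries, a library was picked out where its gap to the nearest other exceeded Dixon's 95% critical value, which chance passes in about 5% of groups. Over the 45 genes and 4 groups (180 sets) this picked out 28 libraries in 20 genes, 24 of them replicate 1 on the low side, with 4 of these in the untreated group, 0 in young MSCs with GDF11 and 10 in each group with MmC. The sets are not independent, because the genes vary together over the same 16 libraries. A single low library can therefore be picked out in many genes. The same count over all tested genes was not made.

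Among the genes shown by library, replicate 1 was low for BUB1 (6.31 CPM), DLGAP5 (3.86 CPM) and NCAPH (3.32 CPM) in MmC+/GDF11-, for DLGAP5 (4.70 CPM) and ESPL1 (4.73 CPM) in MmC+/GDF11+, and for BUB3 (122 CPM) and SPC25 (0.299 CPM) in MmC-/GDF11-. The summed level of the 45 genes was also low in replicate 1 of MmC+/GDF11- (560 CPM). On the high side stood replicate 4 of MmC-/GDF11+ for BUB1 (62.4 CPM), KIF18A (27.8 CPM), DLGAP5 (72.0 CPM) and the summed level (3461 CPM), and replicate 3 of MmC+/GDF11- for SPC25 (0.748 CPM). What set these libraries apart was not tested.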

How the results depend on the processing

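The counts of lower genes after MmC kept their size under 9 of 10 alternatives other than leaving out a library, with 39 to 44 genes called in each MmC comparison. The exception was the test against a 2-fold change (glmTreat), with 21 genes without and 21 with GDF11. Shares of all tested genes called are not given for these alternatives. Leaving out each library gave 39 to 43 genes without and 40 to 43 with GDF11, medians of -1.94 to -1.54 and -1.84 to -1.48, and 0 genes higher. For GDF11 the median ran from -0.15 to 0.17 in young MSCs, from -0.17 (without replicate 1 of MmC+/GDF11-) to 0.27 (without replicate 1 of MmC+/GDF11+) in senescent MSCs, and from -0.21 to 0.24 for the interaction, with 0 genes called. No call turned its direction. With the replicate block, 44 genes were lower in each MmC comparison (SPC25 and ESPL1 were gained, with edgeR adjusted p = 0.0230 and 0.00836 with GDF11) and 0 were called for GDF11, also within the senescent libraries alone. The block changed no other call. The block over all 16 libraries gives each number the same effect in every group, although the labels give only the shared number. Using no filter moved the median of all genes to 0.12 for MmC with GDF11, beside -1.71 for the 45 genes, and ended the calls of MAD2L1, KIF2C and KIF18A. A fit of only the libraries compared cannot be made for the interaction. The median difference of replicate 1 was -0.97 to -0.90 under other scalings and filters. The alternative without replicate 1 for the correlation of the genes within groups, added after seeing the data, moved it from 0.92 to 0.49. Low counts limit SPC25 and PRC1.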
